A study of Mus musculus with 2 samples.

Results

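Type I interferon-stimulated genes are the genes that cells switch on when interferon alpha or beta binds the IFNAR receptor and transcription factors such as STAT2 and IRF9 enter the nucleus. Their products sense foreign nucleic acid, degrade or mark viral RNA, tag proteins with ISG15 and restrict virus entry, and in tumors they are a common readout of interferon signalling in monocytes and macrophages. A list of 38 such genes was looked up by symbol in the gene table of a single-cell RNA-Seq experiment, and 37 were found among 27998 genes. Mx2 was not analysed here. Levels, differences between the libraries and the variation from cell to cell are given for these genes, and Ifi44 and Ifi44l, a pair of neighbouring genes of unsettled function, are set beside the other 35 members.

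The data were 2 droplet libraries of cells from subcutaneous Lewis lung carcinoma tumors, collected on day 14 after implantation, each from a pool of 3 C57/BL6 mice that were 8 weeks old at implantation and 10 weeks old at collection. The library labelled wt came from miR-21 fl/fl mice and the library labelled cko from LysMCre;miR-21fl/fl mice. Both groups carried the floxed miR-21 allele, and the Cre was driven by the Lyz2 (lysozyme M) promoter, which is active in macrophages, monocytes and granulocytes rather than in one cell type. With 1 library per group there was no replicate, so no test between the groups was possible, and the effect of the genotype, the pool and the library cannot be told apart. All intervals below cover counting error only.

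The sample titles and the source descriptions assigned the genotypes in opposite ways, and the groups here follow the titles. Lyz2, the gene into which the LysMCre allele is inserted, was measured at 19627 CPM (UMIs per 1000000 UMIs) in monocytes and macrophages of the library labelled wt, against 9292 CPM in that labelled cko. Vmp1, the gene whose transcription unit overlaps the miR-21 precursor, stood at 242 and 232 CPM. The mature microRNA was not measured. The design text names a sort of CD45+ leukocytes and the growth protocol a narrower macrophage gate. T, NK, neutrophil and dendritic cell markers were found, so cells were sorted into classes by marker UMIs that are no members of the list. After filtering, 2445 and 2704 cells were left in the libraries labelled wt and cko, with median depths of 8359 and 8247 UMIs per deposited cell, and 79.4% and 77.8% of them were monocytes and macrophages (at least 3 UMIs of a marker set that includes Csf1r, Adgre1 and Ms4a7, and few markers of other lineages). The libraries shared 5 cell barcodes.

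Many of these genes carry an interferon-stimulated response element in their promoters, a site bound by IRF proteins. The letters GAAANNGAAA, where N is any base, were searched for on both strands of the 250 bases before each RefSeq start site (GRCm38.p6), and overlapping matches were counted separately. A match was found for 9 of the 28 members with an entry, 32.1%, against 3.46% of all 27025 gene symbols with an entry. Bst2, Ifi205, Ifit1, Ifit3, Isg15, Oas1a, Oas3, Rsad2 and Stat2 had a match, and Ifi44 and Ifi44l had none in this window. Most of the other members with an entry had none either, among them Irf7, Ifit2, Cmpk2, Oasl2 and Samhd1, so this is not particular to the pair. A match is a description of the sequence and not a mapped binding site. The upstream sequences of 3 members with matches are shown beside those of Ifi44 and Ifi44l, since the last 2 differed from the rest between the libraries. Each is read 5′ to 3′ along the gene's strand and stops before the first annotated transcribed base, and capitals mark the matches, as GAAANNGAAA or its reverse complement TTTCNNTTTC. They are Ifit1, chr19:34640671-34640870 (plus strand), Isg15, chr4:156200819-156201018 (minus strand), Rsad2, chr12:26456453-26456652 (minus strand), Ifi44, chr3:151749961-151750160 (minus strand), and Ifi44l, chr3:151762893-151763092 (minus strand).

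Ifit1: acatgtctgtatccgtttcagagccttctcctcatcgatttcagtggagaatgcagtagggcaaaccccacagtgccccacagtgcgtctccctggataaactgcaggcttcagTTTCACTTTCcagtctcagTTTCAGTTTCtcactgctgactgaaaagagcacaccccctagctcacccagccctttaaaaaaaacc
Isg15: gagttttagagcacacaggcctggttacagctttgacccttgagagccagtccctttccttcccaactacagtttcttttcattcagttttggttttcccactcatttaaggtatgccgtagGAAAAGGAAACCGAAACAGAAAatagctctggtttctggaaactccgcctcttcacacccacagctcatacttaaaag
Rsad2: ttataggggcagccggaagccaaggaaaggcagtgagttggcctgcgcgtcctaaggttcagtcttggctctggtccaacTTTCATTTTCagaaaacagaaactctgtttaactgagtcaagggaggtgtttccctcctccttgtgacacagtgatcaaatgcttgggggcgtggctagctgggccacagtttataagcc
Ifi44: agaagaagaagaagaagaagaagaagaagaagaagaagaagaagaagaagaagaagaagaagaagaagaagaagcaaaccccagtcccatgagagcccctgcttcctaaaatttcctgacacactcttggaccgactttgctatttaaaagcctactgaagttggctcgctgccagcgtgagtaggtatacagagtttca
Ifi44l: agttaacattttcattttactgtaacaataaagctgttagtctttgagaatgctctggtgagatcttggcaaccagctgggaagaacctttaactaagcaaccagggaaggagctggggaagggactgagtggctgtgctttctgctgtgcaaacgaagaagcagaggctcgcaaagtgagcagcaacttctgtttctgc

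The 2 matches of Ifit1 lay 94 and 75 bases before the start site and read on the opposite strand, the 3 overlapping matches of Isg15 lay 56 to 68 bases before it, and the match of Rsad2 lay 110 bases before it. Distances are from the RefSeq start site, and the printed stretch ends 18 bases before that site for Ifit1, 50 for Ifi44 and 1 for Ifi44l, where the annotated gene starts further upstream. The upstream sequence of Ifi44 begins with a long run of aag repeats, which that of Ifi44l does not have.

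The members were measured at very different levels. Values are the summed UMIs of a class in CPM, and since 3′ UMIs count transcript ends, they are not scaled by transcript length. In monocytes and macrophages Ifitm3, a membrane protein that blocks virus entry, was measured at 5432 CPM (wt) and 5534 CPM (cko), and made up 53.5% and 55.2% of all member UMIs. Samhd1, the triphosphohydrolase that depletes deoxynucleotides, followed at 706 and 687 CPM. Isg15, the ubiquitin-like modifier, stood at 433 and 356 CPM, Ifi204, a DNA sensor of the PYHIN family, at 423 and 424 CPM, and Irf7, the transcription factor that amplifies interferon production, at 420 and 408 CPM. Among the lowest in both libraries were Oas2, an oligoadenylate synthetase, at 14.8 and 13.4 CPM and Cmpk2, a mitochondrial nucleotide kinase, at 24.1 and 20.2 CPM. Members with close paralogs (Ifit1 with Ifit1bl1, Ifit3 with Ifit3b, Ifi204 with other PYHIN genes, Oas1a with Oas1g, Oasl1 with Oasl2) could share or lose reads in the counting, so their levels are uncertain to that extent.

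Levels differed by cell class more than by library. Classical monocytes (at least 3 UMIs of Ly6c2, under 10 of C1qa, C1qb and C1qc) held a summed member level of 13916 CPM in the library labelled wt and one of 13704 CPM in that labelled cko. Macrophages that had both Ly6c2 and at least 20 C1q UMIs held 12726 and 13977 CPM. Nonclassical monocytes (Ace and Treml4) stood at 10118 and 10616 CPM, monocytes low in both Ly6c2 and Ace at 9674 and 10357 CPM, and C1q macrophages low in Ly6c2 (under 3 UMIs) as a whole at 7098 and 7376 CPM. Neutrophils, only 21 and 59 cells, stood at 10845 and 9259 CPM. Dendritic cells were at 6339 and 5191 CPM, CD8 T cells at 1731 and 1571 CPM and NK cells at 1297 and 1328 CPM. The T and NK values include free RNA from outside the cells. At the rate seen for C1q genes it would give 198 of 628 Ifitm3 UMIs (wt) and 285 of 462 (cko) in T and NK cells. For Isg15 it would give 16.5 of 146 and 19.2 of 175. Without Ifitm3 and Bst2 the classical monocytes kept 6432 and 6104 CPM and the Ly6c2+ C1q macrophages 6055 and 6850 CPM, and both stayed above every other class in both libraries.

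The order of classes was not the same for every member. Of the 37, 20 had their highest level in classical monocytes or Ly6c2+ C1q macrophages in both libraries. The same count was not made over all genes. Which of these classes was highest differed between the libraries: classical monocytes for 17 members (wt) and 7 (cko), and Ly6c2+ C1q macrophages for 4 and 19. Bst2, or tetherin, which holds budding virus particles at the cell surface and is a known marker of plasmacytoid dendritic cells, was measured at 3449 and 2811 CPM in those cells (18 and 19 cells) and at 298 and 304 CPM in classical monocytes. Ifi205, another PYHIN gene, was highest in dendritic cells, at 775 CPM (wt) and 367 CPM (cko), against 185 and 168 CPM in classical monocytes. Rsad2, or viperin, and Rtp4 were among 6 members highest in neutrophils of both libraries, which were few: Rsad2 at 268 and 149 CPM against 76.5 and 71.6 CPM in classical monocytes, and Rtp4 at 780 and 447 CPM against 342 and 313 CPM. Parp9 was highest in the class gated as CD8-negative T cells in both libraries. That class also held the NK gene Ncr1 at 389 and 207 CPM, beside Cd3e at 486 and 606 CPM, where CD8 T cells had 1 and 0 UMIs of Ncr1, and whether all its cells are T cells was not tested.

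**Figure D1:**
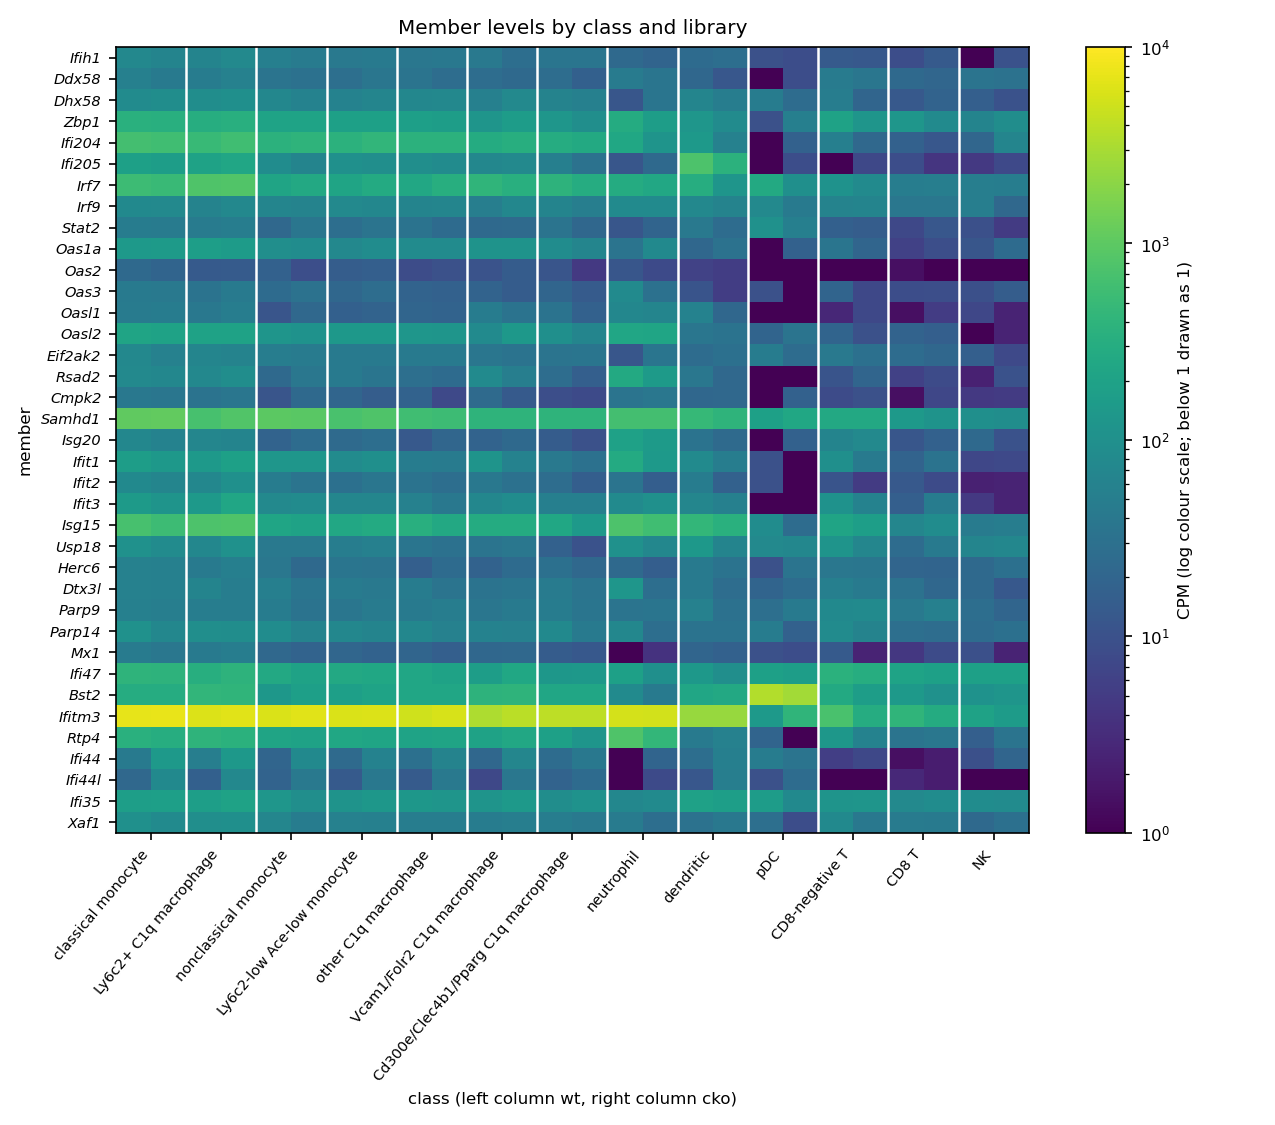
Level of each of the 37 members (rows, grouped by role) in 13 marker-gated classes, with the library labelled wt on the left and cko on the right of each class; colour gives CPM on a log scale. Ifitm3 is the brightest row in the myeloid classes and Bst2 in plasmacytoid dendritic cells (pDC). Of the 37 rows, 28 (wt) and 32 (cko) are lowest in a T, NK or pDC class. The same count was not made over all genes, and these classes hold few UMIs (102916 and 113835 in pDC).

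Classical monocytes and Ly6c2-low C1q macrophages were compared within each library. Of the 37 members, 30 were more than 1.5-fold higher in classical monocytes than in Ly6c2-low C1q macrophages in both libraries, and none was lower by that much. Over all genes with enough counts 7.96% were higher in this way and 15.3% lower. The median log2 ratio of the members was 1.07 in the library labelled wt and 0.98 in the library labelled cko, where the median of all genes was -0.10 in both. Isg20, a 3′ to 5′ exonuclease, had the largest ratio, 2.42 (interval 2.09 to 2.76) and 1.92 (1.62 to 2.22) on the log2 scale. Ifit1, which binds RNA that lacks cap methylation, had 1.58 and 1.56, and Usp18, the protease that removes ISG15, had 1.54 and 1.61. Samhd1 stood at 1056 CPM in classical monocytes and 419 CPM in C1q macrophages of the library labelled wt, and at 1092 and 415 CPM in that labelled cko. The 1 member not higher in both libraries was Bst2, with log2 ratios of -0.14 (-0.24 to -0.04) and 0.09 (-0.01 to 0.19).

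The comparison of the libraries asked whether the interferon-stimulated genes differed with the myeloid deletion of miR-21. In monocytes and macrophages Ifi44 and Ifi44l were higher in the library labelled cko by 2.45-fold and 2.99-fold, and none of the other 35 members was past 1.5-fold. Ifi44 had 655 UMIs, 32.8 CPM (Poisson interval 30.4 to 35.4), in wt and 1714 UMIs, 80.2 CPM (76.5 to 84.1), in cko. Ifi44l had 317 UMIs, 15.9 CPM (14.2 to 17.7), and 1015 UMIs, 47.5 CPM (44.6 to 50.5). The log2 ratios were 1.29 (1.16 to 1.42) and 1.58 (1.40 to 1.77). Over the 10475 genes with at least 50 UMIs, 2.6% were higher by over 1.5-fold and 1.17% lower, and the ratios of 90% of genes lay between -0.31 and 0.44 on the log2 scale. Ordered by the lower end of the interval, Ifi44l was the 3rd and Ifi44 the 6th of these genes.

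The other 35 members differed little between the libraries, and 31 of them were lower and 4 higher in that labelled cko. Their median log2 ratio was -0.10, beside a median of 0.04 over all genes. The interval lay below 0 for 17 of the 35, where it did for 8.18% of all genes. It lay above 0 for Ifitm3 alone, at 0.03 (0.01 to 0.04), where it did for 16.6% of all genes, and with TMM scaling Ifitm3 turned to -0.0064. The lowest were Parp14, a mono-ADP-ribosyltransferase, at -0.40 (-0.51 to -0.29), or 81.0 CPM against 61.4 CPM, and Isg15 at -0.28 (-0.33 to -0.24). The members also varied more from cell to cell than most genes, which counting intervals leave out. At equal depth, the variance beyond counting noise over the squared mean had a median of 1.56 (wt) and 1.80 (cko) for members. For all genes with a mean of at least 0.05 UMIs it was 0.18 and 0.19. The 17 of 35 and the 8.18% are thus not a like comparison, and the same holds for the other counts of member intervals below. With equal weight for each of the 7 monocyte and macrophage classes, which was tried once the values were known, 20 of the 35 were lower and the median of all members was -0.01. Those classes leave out 276 and 302 cells that were in none of the 7, and with the same cells summed without the weights 30 of the 35 were lower. Of the 17 with intervals below 0, Bst2, Ifi47, Isg20, Samhd1, Usp18 and Zbp1 were higher under equal weights. The mix of classes also differed between the libraries: classical monocytes were 19.2% of cells in the library labelled wt and 16.5% in the library labelled cko, and Ly6c2-low C1q macrophages 21.7% and 28.0%. Under the same weights Ifi44 and Ifi44l had log2 ratios of 1.43 and 1.60.

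**Figure D2:**
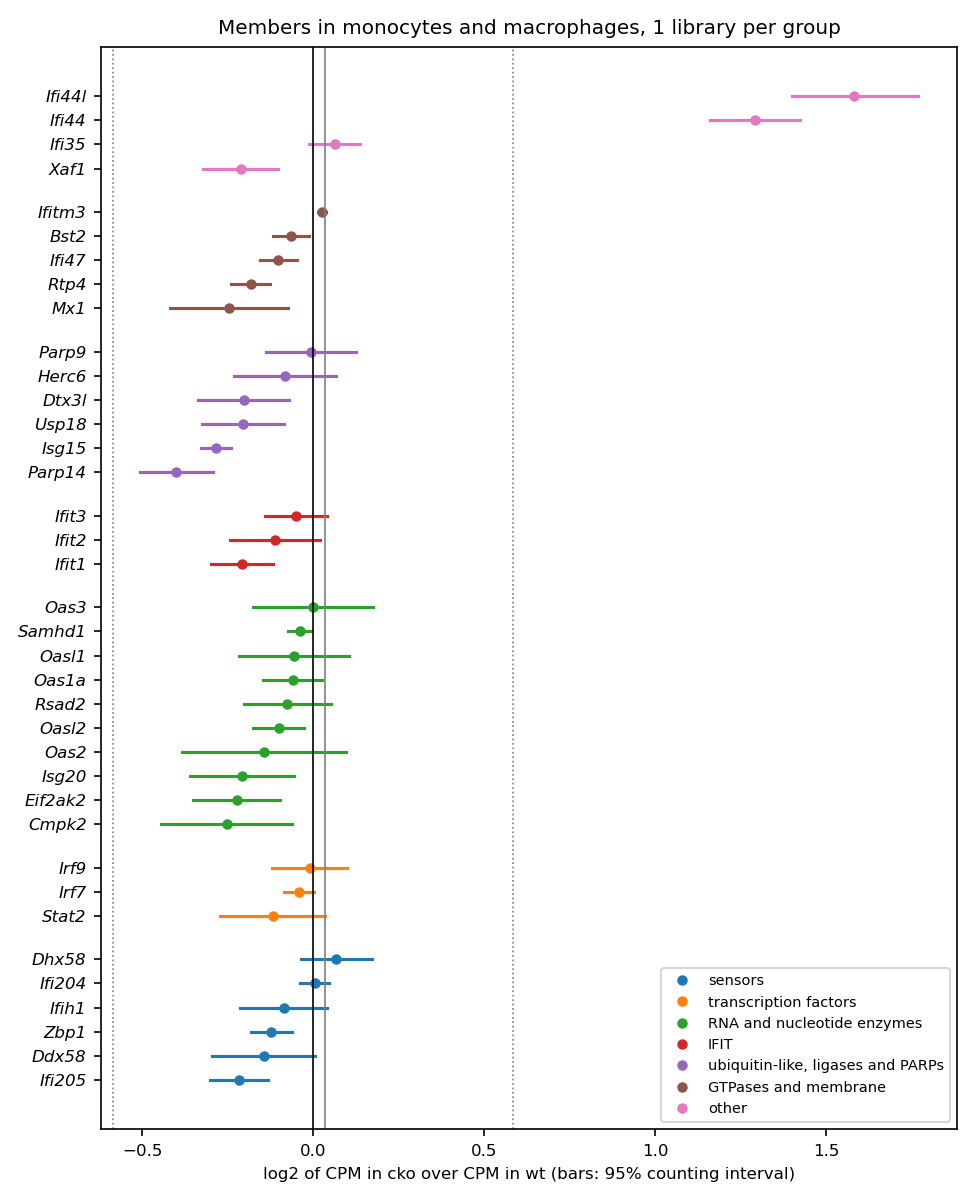
Log2 ratio of CPM in the library labelled cko over the library labelled wt for each member in monocytes and macrophages, coloured by role, with 95% counting intervals; the grey solid line is the median of all genes and the dotted lines mark 1.5-fold. Ifi44 at 1.29 and Ifi44l at 1.58 stand apart from the other 35, which lie between -0.40 and 0.07.

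The members were described further by role. Among 6 sensors of nucleic acid, 4 were lower and 2 higher in the library labelled cko, with Ifi205 the lowest at -0.22 (-0.30 to -0.13) and Dhx58 (LGP2) the highest at 0.07 (-0.04 to 0.17). Zbp1, a sensor of Z-form nucleic acid, was at -0.12 (-0.18 to -0.06), and the RNA helicases Ifih1 (MDA5) and Ddx58 (RIG-I) were at -0.09 (-0.21 to 0.04) and -0.15 (-0.30 to 0.00). Of the transcription factors, Irf7 was at -0.04 (-0.09 to 0.00), Irf9 at -0.01 (-0.12 to 0.10) and Stat2 at -0.12 (-0.27 to 0.03). The intervals of all 3 included 0.

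Of the 10 enzymes of RNA and nucleotide metabolism 5 had intervals below 0, with Cmpk2 the lowest at -0.25 (-0.44 to -0.06), and the intervals of the other 5 included 0, with Oas3 at 0.00 (-0.18 to 0.17). Eif2ak2, the kinase PKR, was at -0.22 (-0.35 to -0.10). The 3 IFIT genes, which bind viral RNA, were at -0.21 (-0.30 to -0.12) for Ifit1, -0.11 (-0.24 to 0.02) for Ifit2 and -0.05 (-0.14 to 0.04) for Ifit3. Of 6 genes of ISG15 conjugation and ADP-ribosylation, 4 had intervals below 0, namely Isg15, Parp14, Usp18 and Dtx3l, beside the same 8.18% of all genes. Of the 5 GTPase and membrane genes measured, Mx1 was at -0.25 (-0.42 to -0.07) and Rtp4 at -0.18 (-0.24 to -0.13). Ifi47 was at -0.10 (-0.16 to -0.05) and Bst2 at -0.06 (-0.12 to -0.01), but both changed sign under equal class weights, to 0.014 and 0.042. Of the 4 remaining members, Ifi35 was at 0.06 (-0.01 to 0.14) and Xaf1 at -0.21 (-0.32 to -0.10), beside Ifi44 and Ifi44l.

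Ifi44 and Ifi44l were next followed through the classes. In classical monocytes Ifi44 was measured at 43.6 CPM (wt, 179 UMIs) and 145 CPM (cko, 565 UMIs). In Ly6c2+ C1q macrophages it was at 51.6 and 134 CPM. The nonclassical monocytes stood at 19.9 and 78.3 CPM, and the monocytes low in Ly6c2 and Ace at 24.2 and 58.8 CPM. Among Ly6c2-low C1q macrophages, those with at least 3 UMIs of Vcam1 and Folr2 together stood at 22.0 and 68.8 CPM, those with as many of Cd300e, Clec4b1 and Pparg at 25.8 and 40.6 CPM, and those with neither set at 30.3 and 61.8 CPM. The other 137 and 189 of these macrophages met both sets and were given no subclass. In all 7 classes the interval of the ratio lay above 0, with log2 ratios from 0.65 to 1.97. Classical monocytes and Ly6c2+ C1q macrophages were the 2 highest of the 7 in both libraries, and nonclassical monocytes, the lowest in the library labelled wt, were the third in that labelled cko.

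Ifi44l was read in the same classes. It was measured at 22.4 and 78.8 CPM in classical monocytes, 16.8 and 72.8 CPM in Ly6c2+ C1q macrophages and 18.7 and 41.2 CPM in nonclassical monocytes. The monocytes low in Ly6c2 and Ace held 54 and 145 of its UMIs, a log2 ratio of 1.55 (1.09 to 2.03). The Vcam1 and Folr2 macrophages stood at 7.33 and 38.8 CPM, the Cd300e, Clec4b1 and Pparg macrophages at 19.0 and 25.3 CPM and the other C1q macrophages at 14.3 and 41.6 CPM. The log2 ratios ran from 0.42 to 2.41, and 6 of 7 intervals lay above 0. The exception was the Cd300e, Clec4b1 and Pparg class, at 0.42 (-0.28 to 1.15), which was also the class where Ifi44 differed least.

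Outside monocytes and macrophages the counts were small. In dendritic cells, 46 and 64 of them, Ifi44 was at 27.7 and 52.4 CPM and Ifi44l at 12.3 and 51.1 CPM, with log2 ratios of 0.92 (0.08 to 1.81) and 2.05 (0.93 to 3.36). The dendritic class was a different mix in the libraries. Ccr7 and Fscn1, markers of mature dendritic cells, stood there at 557 and 1238 CPM and at 428 and 1021 CPM, Xcr1 and Clec9a, markers of conventional type 1 dendritic cells, at 183 and 92.7 CPM and at 56.9 and 16.1 CPM, and Krt8, an epithelial keratin, at 23.1 and 55.1 CPM. Their part in the dendritic values was not tested. Neutrophils of the library labelled wt had 0 UMIs of both, which allows up to 34.9 CPM each at a floor of 3 UMIs and 43.0 CPM at the upper end of the Poisson interval, and those of the library labelled cko had 5 and 2. Plasmacytoid dendritic cells had 5 and 4 UMIs of Ifi44. All T and NK cells together had 7 and 13 UMIs of Ifi44, of which NK cells held 4 and 8 (log2 ratio 1.11, -0.80 to 3.29), and 2 and 2 of Ifi44l, where free RNA at the rate seen for C1q genes would give 1.23 and 4.16 and 0.592 and 2.50. A difference between the libraries in lymphoid cells was not detectable at this depth.

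**Figure D3:**
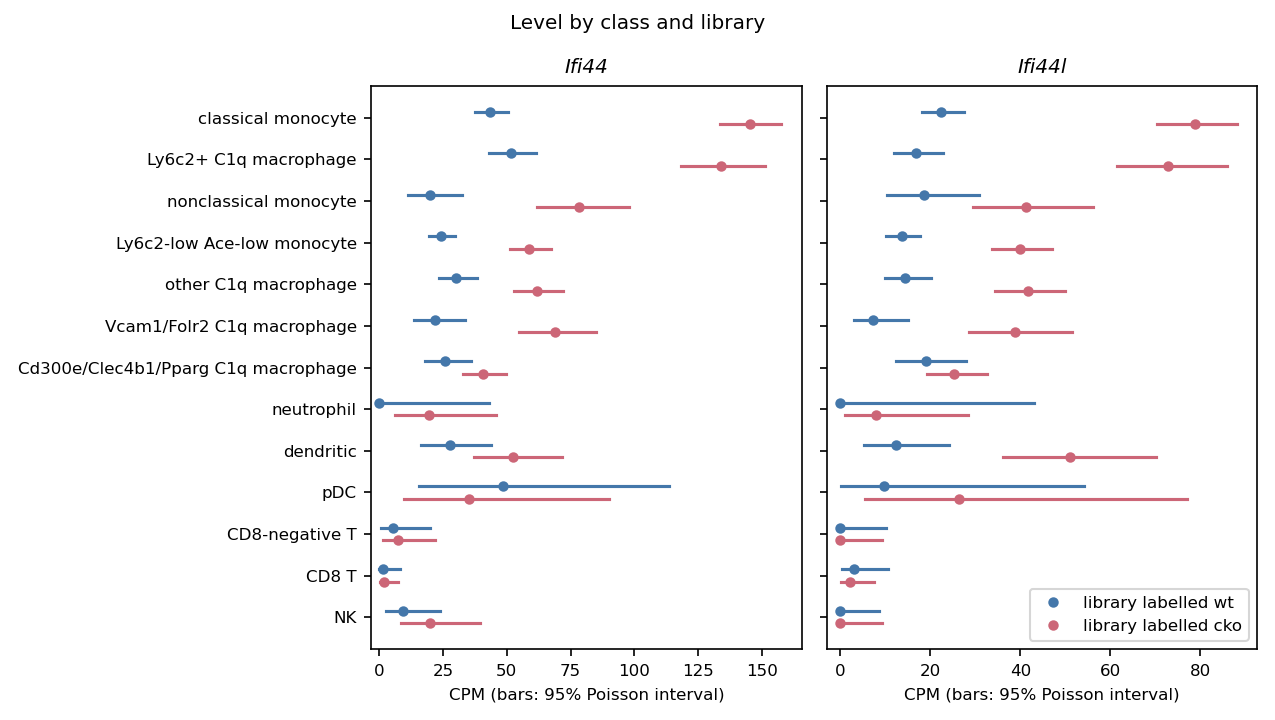
CPM of Ifi44 (left) and Ifi44l (right) in 13 classes for the library labelled wt (blue) and cko (red), with 95% Poisson intervals. In classical monocytes Ifi44 was at 43.6 and 145 CPM and Ifi44l at 22.4 and 78.8 CPM, and the intervals of the 2 libraries are apart in classical monocytes and overlap in T and NK cells.

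The other 35 members did not share this pattern across classes. Their median log2 ratio was -0.10 in classical monocytes, where 28 were lower and 7 higher, and 0.13 in Ly6c2+ C1q macrophages, where 28 were higher and 7 lower. The interval lay below 0 for 13 of the 35 in classical monocytes, as for 5.23% of all genes there, and above 0 for 10 in Ly6c2+ C1q macrophages, as for 8.24% of all genes. In the latter class, Ifit3 was at 145 and 229 CPM (0.66, interval 0.46 to 0.87), Usp18 at 71.7 and 106 CPM (0.57, 0.27 to 0.87) and Ifit2 had 167 and 201 UMIs (0.55, 0.24 to 0.85). Monocytes low in Ly6c2 and Ace had a median of 0.08. In the Cd300e, Clec4b1 and Pparg macrophages the median over the 30 members with enough counts was -0.38, and 9 of them were lower by over 1.5-fold, as were 3.01% of all genes there, among them Isg15 at 242 against 143 CPM (-0.76, -0.98 to -0.53) and Parp14 at 79.6 against 43.5 CPM (-0.87, -1.28 to -0.47). Dendritic cells had a median of -0.41 over 20 members, with Irf7 at 312 against 122 CPM, in a class where Ccr7 and Xcr1 also differed between the libraries. The medians of all genes in these classes lay between 0.01 and 0.03. Of the 13 classes, CD8-negative T cells had the lowest median, -0.46 over 15 members, with 11 lower and 4 higher. Neutrophils had -0.40 over 11 members, all lower. The medians of all genes there were 0.05 and -0.08. Nonclassical monocytes had -0.14, the other C1q macrophages -0.07 and the Vcam1 and Folr2 macrophages 0.09. CD8 T cells had 0.04 over 14 members and NK cells -0.004 over 7.

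Variation from cell to cell was measured after every cell was thinned to 3000 UMIs. The number of members with at least 1 UMI per classical monocyte had a median of 9.5 (wt) and 8 (cko), the 5th percentile was 4 in both, the 95th was 22 in both, and the most was 29 and 32. Ly6c2+ C1q macrophages had medians of 10 and 10. Monocytes low in Ly6c2 and Ace had 7 and 7, nonclassical monocytes 7 and 6, and Ly6c2-low C1q macrophages 6 and 6. CD8 T cells had 4 and 3 and NK cells 3 and 3, with free RNA included. Over all monocytes and macrophages the means were 8.76 and 8.49, a ratio of 0.969. A minority of cells showed far more members than the median.

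**Figure D4:**
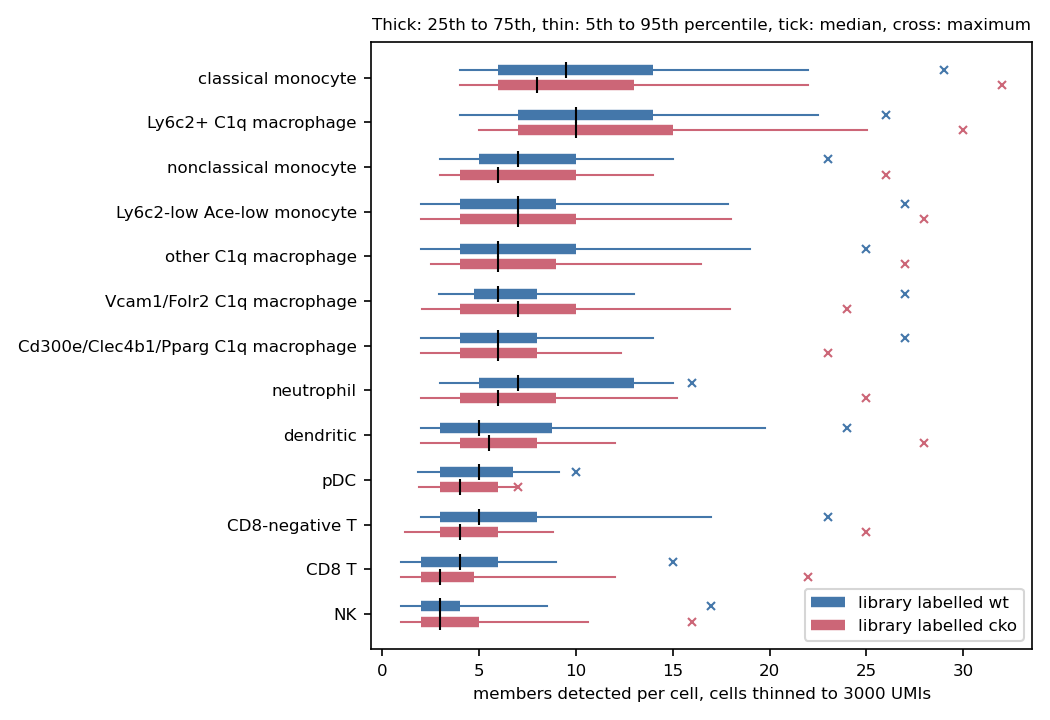
Number of the 37 members with at least 1 UMI per cell, after thinning to 3000 UMIs, by class and library (wt blue, cko red); thick bars span the 25th to 75th and thin lines the 5th to 95th percentile, the tick is the median and the cross the maximum. Classical monocytes had medians of 9.5 and 8 and maxima of 29 and 32.

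The UMIs of the members were concentrated in such cells. Leaving out Ifitm3 and Bst2, 33.9% and 36.8% of member UMIs in classical monocytes lay in the tenth of cells with the most. Excess variance, the variance beyond counting noise over the squared mean, had a median over the members of 1.28 and 1.33 in classical monocytes, where the median of all genes with a mean of at least 0.05 UMIs was 0.15 and 0.14. Rsad2 was the most variable in both libraries at 13.1 and 15.8, ahead of Ifit1 at 8.45 and 11.5, Ifit2 at 12.1 and 8.12 and Ifit3 at 8.10 and 9.83. Isg15 was at 2.55 and 5.04. Ifitm3, detected in nearly every cell, was at 0.08 and 0.09, and Ddx58, Irf9 and Oas2 were lowest in the lower of their 2 libraries, at -0.06, -0.03 and 0.01. Ifi44 was at 4.71 and 3.16 and Ifi44l at 3.22 and 1.67.

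Members were detected together in the same cells. In classical monocytes, 470 and 446 cells, the correlation of a member with the number of other members detected in the same cell had a median r of 0.39 in each library, where the median over non-members was -0.01 and -0.02 and their 95th percentile 0.14 and 0.15. Isg15 had the largest r, 0.77 and 0.76, and Ifit3 had 0.64 and 0.61 and Ifit1 0.63 and 0.62. Irf9 was the lowest, at 0.03 and 0.00. Cells of a library share its free RNA and preparation, so these are descriptions. Ifi44 had r of 0.16 in the library labelled wt and 0.37 in the library labelled cko, and Ifi44l 0.10 and 0.33. The pair itself was correlated at 0.14 and 0.49. Both genes had fewer UMIs in the library labelled wt, and the part of that in r was not tested. The 10 genes outside the list that followed the members most closely were Mnda, Pyhin1, Ifit1bl1, Ms4a4c, Phf11b, Ifi203, Mndal, Cxcl10, Fcgr1 and Pydc4, with r in the lower library from 0.65 for Mnda to 0.47 for Pydc4. Mnda, Pyhin1, Ifi203, Mndal and Pydc4 belong to the PYHIN family or carry its pyrin domain, as Ifi204 and Ifi205 do.

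Monocytes and macrophages were then grouped by how many of the other 35 members each cell showed, which uses neither Ifi44 nor Ifi44l. In cells with 0 to 3 others (226 and 243 cells) Ifi44 was at 5.74 and 13.6 CPM. With 4 to 6 others it was at 13.2 and 23.7 CPM, with 7 to 9 at 24.0 and 56.4 CPM, with 10 to 12 at 39.7 and 86.7 CPM and with 13 to 31 (391 and 328 cells) at 89.3 and 292 CPM. Ifi44 followed the other members in both libraries and was higher in the library labelled cko at every step, with log2 ratios of 1.25 (0.32 to 2.25), 0.84 (0.45 to 1.24), 1.23 (0.92 to 1.55), 1.13 (0.79 to 1.47) and 1.71 (1.53 to 1.89). Ifi44l stood at 2.05 and 12.5 CPM in the first group and at 31.5 and 129 CPM in the last, and its log2 ratios ran from 1.18 (0.72 to 1.65) to 2.61 (1.24 to 4.32). Ifit1 and Samhd1, which are themselves among the 35 and so must rise along the groups, stood at 472 and 508 CPM and at 1233 and 1192 CPM in the last group, and their log2 ratios over the 5 groups ran from -0.55 to 0.11 and from -0.11 to 0.12.

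**Figure D5:**
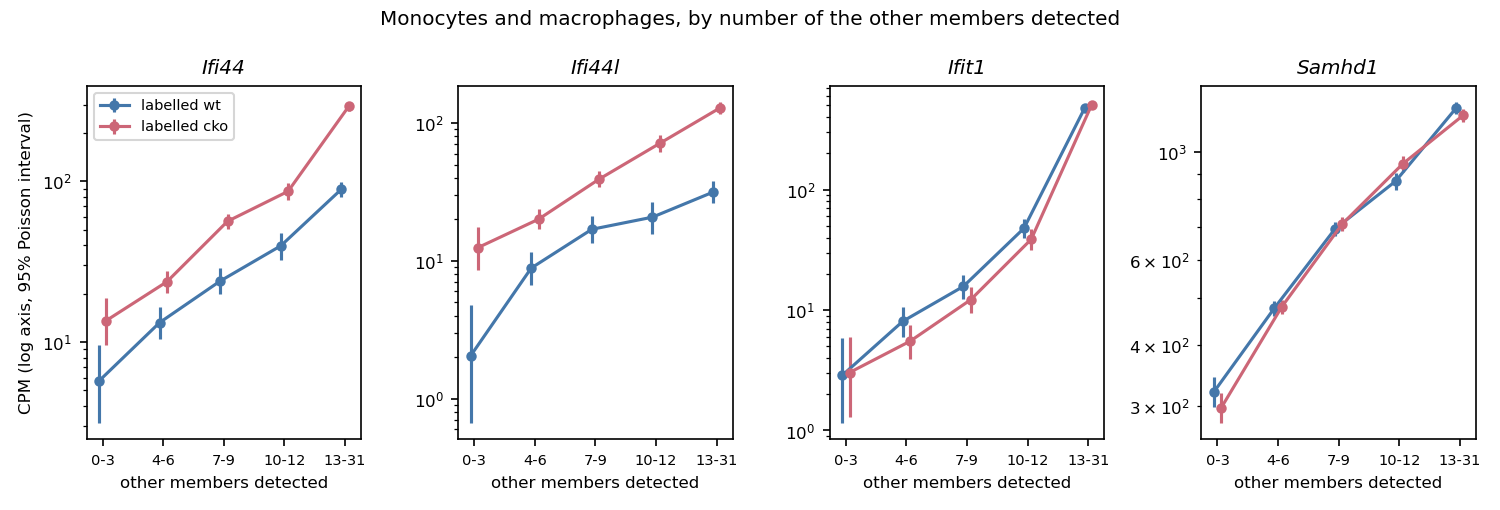
CPM on a log axis of Ifi44, Ifi44l, Ifit1 and Samhd1 in monocytes and macrophages grouped by the number of the other 35 members detected per cell (0-3, 4-6, 7-9, 10-12, 13-31), for the libraries labelled wt (blue) and cko (red) with 95% Poisson intervals. For Ifi44 and Ifi44l the red points lie above the blue at every step, from 5.74 and 13.6 CPM to 89.3 and 292 CPM for Ifi44, and for Ifit1 and Samhd1 the lines run close together.

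More cells showed the pair in the library labelled cko, and those that did showed slightly more. At equal depth 7.67% of monocytes and macrophages (interval 6.53 to 8.95) had an Ifi44 UMI in the library labelled wt and 14.1% (12.7 to 15.7) in the library labelled cko, or 16.4% and 26.3% without thinning. Cells with an Ifi44 UMI held 1.40 and 1.73 of them on average. For Ifi44l the shares were 4.74% (3.84 to 5.78) and 11.2% (9.90 to 12.6), or 9.89% and 21.9% without thinning. Among T and NK cells, with median depths of 5786 and 6459 UMIs against 8726 and 8523 in monocytes and macrophages, the thinned shares with Ifi44 were 1.65% and 2.76%, and with Ifi44l 0.549% and 0.461%. The cell with the most Ifi44 held 10 UMIs, 1.53% of the total, in the library labelled wt and 24 UMIs, 1.40%, in the library labelled cko, so no single cell carried the difference.

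Ifi44 (ENSMUSG00000028037, chr3:151730922-151749960, minus strand, GRCm38) and Ifi44l (ENSMUSG00000039146, chr3:151758737-151762892, minus strand) are neighbours, with 8777 bases between them. Within 1000000 bases on either side 5 other genes had enough counts, and none was past 1.5-fold. All 5 lay on the Ifi44l side and were higher in the library labelled cko, so the Ifi44 side could not be read. They were Dnajb4, an HSP40 cochaperone, at 0.02 (-0.27 to 0.32), Fubp1 at 0.23 (0.13 to 0.33), Usp33 at 0.04 (-0.24 to 0.32), Zzz3 at 0.22 (0.00 to 0.45) and Pigk at 0.04 (-0.10 to 0.19) on the log2 scale. Adgrl4, the nearest coding gene on one side, had 7 and 11 UMIs, and Ptgfr, the nearest on the other, had none. Other members that sit together on a chromosome did not differ as this pair did: Oas1a, Oas2 and Oas3 on chromosome 5 were at -0.06, -0.14 and 0.00, Ifit1, Ifit2 and Ifit3 on chromosome 19 at -0.21, -0.11 and -0.05, and Rsad2 and Cmpk2 on chromosome 12 at -0.08 and -0.25.

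The rest of the pathway was read in monocytes and macrophages from lists of non-members. No interferon ligand reached 50 UMIs. Ifnb1 had 7 and 1 UMIs, the 8 other type I and type III interferon genes listed with it had none, and Ifng, which lymphocytes make, had 28 and 14. The receptor subunits Ifnar1 and Ifnar2 were at 55.2 and 54.5 CPM and at 158 and 144 CPM, with log2 ratios of -0.02 (-0.14 to 0.10) and -0.13 (-0.21 to -0.06), and none of 7 receptors and kinases was past 1.5-fold. Of 30 further interferon-responsive genes 7 were higher and 23 lower, with a median of -0.10 and none past 1.5-fold, from Nmi at -0.38 to Oas1c at 0.13. Of the 5 genes with enough counts on a list set up for interferon gamma, 3 had intervals below 0, beside 8.18% of all genes. The intervals of Ciita and Nos2 included 0. Cxcl10, 1 of the 3, was also among the 10 non-members that followed the type I members most closely (r of 0.51 in each library). It is thus not read as a marker of interferon gamma alone. The median of the 5 was -0.24. Those below 0 included Gbp2, a guanylate-binding protein, at 396 and 273 CPM (-0.54, -0.59 to -0.49) and Cxcl9 at 163 and 138 CPM (-0.24, -0.31 to -0.17). Cxcl10 was at -0.08 in all monocytes and macrophages but differed by class. It was higher in classical monocytes, at 204 and 308 CPM (0.60, 0.47 to 0.73), and in nonclassical monocytes (0.55, 0.15 to 0.96). In monocytes low in Ly6c2 and Ace it was at 0.08 (-0.10 to 0.26). It was lower in Ly6c2+ (-0.44), Vcam1 and Folr2 (-0.39) and other C1q macrophages (-0.80). In the Cd300e, Clec4b1 and Pparg macrophages it was at 127 and 49.8 CPM (-1.35). Socs1, a feedback inhibitor of JAK kinases, was at 31.7 and 22.5 CPM (-0.49, -0.67 to -0.32), and Socs3 at 138 and 172 CPM (0.31, 0.24 to 0.38).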

How the data were processed

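Single-cell RNA-Seq libraries were made by the authors with 10x Genomics 3′ chemistry; the submitters' notes name Cell Ranger, Seurat and mm10, with versions not given in the sources used here. The deposited files hold raw UMI counts per gene and cell. Libraries held 24492486 and 27163485 UMIs in 2449 and 2718 cells. Cells were kept if they showed 200 genes or more and no more than 10% of their UMIs were mitochondrial. Classes were gated on marker UMIs; 224 and 229 cells met no gate. Doublets were not called, but cells meeting gates of 2 lineages (8 and 11) and non-monocytic marker carriers were left out of the monocyte class. UMIs were summed per class and library and given as CPM with exact Poisson intervals; ratios have exact conditional binomial intervals and shares Clopper-Pearson intervals, at 95%. Reads are UMI-collapsed, and intervals cover counting error only. Genes needed 50 UMIs over both libraries, and 1.5-fold was the size rule. No test was run, since each group had 1 library. For variation between cells each cell was thinned to 3000 UMIs with a fixed seed; the shallowest cell held 3184.

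Members, lists and gates were chosen with earlier results of these data known. Named genes are all members by role, the 10 highest and 10 lowest others by the interval end nearer 0, the 10 that best follow the members across cells, and neighbours of Ifi44 and Ifi44l. Positions are from GENCODE M21 and promoters from RefSeq. Alternatives were other gates, scalings, filters and depths. Steps were tested on simulated data. Python 3.11.15, numpy 2.4.6, scipy 1.17.1, pandas 2.3.3 and matplotlib 3.10.9 were used. A pathway gene and a gate marker are not reported here.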

Additional observations from a re-analysis of the deposited data

Results flagged for a closer look

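The direction of the other 35 members between the libraries differed between classes. Their median log2 ratio, library labelled cko over wt, was -0.10 in classical monocytes and -0.38 in Cd300e, Clec4b1 and Pparg C1q macrophages, but 0.13 in Ly6c2+ C1q macrophages and 0.084 in monocytes low in Ly6c2 and Ace. The difference between the classes was not tested, since each group had 1 library. No group held enough samples to look for a library apart from the others.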

How the results depend on the processing

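No paired analysis was possible because each group had 1 library. Under every alternative run 2 members, Ifi44 and Ifi44l, were past 1.5-fold in monocytes and macrophages, at log2 ratios of 1.23 to 1.43 and 1.47 to 1.72; equal weights for the classes moved Ifi44 to 1.43. Equal weights also moved the number of the other 35 that were lower from 31 to 20, and the median of the members from -0.10 to -0.01; other alternatives gave 30 to 33 and -0.15 to -0.09. Of 350 values for the other members 326 stayed within their counting interval. Among members whose interval left out 0, equal weights reversed Bst2 (0.042), Ifi47 (0.014), Isg20 (0.0033), Samhd1 (0.045), Usp18 (0.047) and Zbp1 (0.015), and TMM scaling reversed Ifitm3 (-0.0064). Summing the 7 classes without the cells in none of them reversed Bst2 (0.0083) and left 30 lower. With doubled gate minimums the median of classical monocytes over C1q macrophages in the library labelled wt was 1.22 in place of 1.07, and classical monocytes ranked 2 in place of 1 by summed member level there. The count of 30 members higher in classical monocytes became 28 and 29 with other gates; that check, the equal weights and the sum of the 7 classes were chosen after seeing the data. Unthinned counts gave median correlations of 0.48 and 0.47 in place of 0.39 and 0.39. Causes were not tested. Depth limits what can be read of Ifi44 and Ifi44l in lymphoid cells, neutrophils and plasmacytoid dendritic cells.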

Other observations

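Among genes outside the list, the 10 with the highest interval in the library labelled cko in monocytes and macrophages were Ccl17, Lyz1, Gm5900, Gbp2b, Aspa, Apoe, Dppa3, Fabp4, Ddit4 and Dbn1, and the 10 lowest were Trim5, Trim12a, Mt3, Cma1, Inhba, Hist1h2al, Gzmg, Plet1, Cd200 and Ctsk. Ccl17, a chemokine of dendritic cells, had 0 and 73 UMIs, a log2 ratio of at least 4.51 against a floor of 3 UMIs per library, and 4.17 at the lower end of its counting interval. Gbp2b, an interferon-inducible guanylate-binding protein on chromosome 3, was at 44.6 and 116 CPM, a log2 ratio of 1.38, where its relative Gbp2 was at -0.54. Its position, chr3:142594847-142619179, is on the chromosome of Ifi44 and Ifi44l but outside the window read around them. Trim5 and Trim12a, antiviral TRIM genes that lie side by side on chromosome 7 and resemble each other in sequence, had 119 and 1 and 373 and 13 UMIs. Lyz1, the close paralog of Lyz2, was at 41.8 and 214 CPM, and Apoe at 1627 and 3506 CPM.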
